A study of Rattus norvegicus with 24 samples.

Results

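The genes described are 9 genes of the interferon response and of antigen presentation, namely Irf1, Irf7, Isg15, Ifit2, Ifit3, Mx1, Mx2, B2m and Tap1. They were taken by symbol from a table of 17711 rows, and each of the 9 symbols matched 1 row. RNA was sequenced from the striatum and from whisker follicles of male rats (strain given as SpragueDawley rats) that had self-administered methamphetamine (MA) or saline (SA). Pressing the active lever outside a time-out gave an MA rat an infusion of 0.05 mg/kg into a vein. Daily sessions lasted 2 h on 16 days, and the SA rats received saline on the same schedule. Both groups had surgery for a catheter and prior lever training for food, and no age is given for the rats in the sources used here. Each tissue has 6 MA and 6 SA libraries, 24 libraries in all, from separate rats within a tissue. The values are FPKM, by definition the fragments of a gene per kilobase of its transcript, scaled to how many fragments mapped in that library. How the deposited values were scaled is not given in the sources used here. Libraries are named by their index of 0 to 5 in the table. The comparisons ask how these genes differed between MA and SA in the brain and in a peripheral hair-bearing tissue, and how they differed between the tissues.

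Interferons are secreted proteins that bind receptors on neighbouring cells and, through JAK kinases and STAT factors, switch on a set of interferon-stimulated genes. Irf1 and Irf7 are transcription factors of this response. Isg15, Ifit2, Ifit3, Mx1 and Mx2 are antiviral effectors, and B2m and Tap1 serve the display of peptides on MHC class I molecules. In the brain, microglia and blood vessel cells are known sources of many of these transcripts, while neurons keep MHC class I low.

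Many such genes carry an interferon-stimulated response element or a gamma-activated site near the transcription start, and the promoters of the members are shown because they hold these letters to differing degrees. RefSeq promoters (GRCr8, 250 bases before to 50 after the start) were at hand for 6 of the 9 members, and Isg15, Ifit2 and Mx2 had no entry. The core of the response element was searched as GAAANNGAA and the gamma-activated site as TTCNNNGAA, both on both strands, and no match of one overlapped a match of the other in these members. The core was found in 4 of the 6 promoters (Irf7, Ifit3, B2m and Tap1), against 9.71% of all 33469 promoters of the same length. The gamma-activated site was found in Irf1 alone among the 6, against 8.87% of all promoters. The Mx1 window held neither string of letters. Each stretch below is given 5′ to 3′ on the strand of the gene, with the match in capitals and 20 bases on either side.
Irf1, chr10:38417773-38417821, plus strand: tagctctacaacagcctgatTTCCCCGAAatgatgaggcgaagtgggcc
Irf7, chr1:205800063-205800111, minus strand: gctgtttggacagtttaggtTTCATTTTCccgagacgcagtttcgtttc
Ifit3, chr1:241527263-241527330, plus strand: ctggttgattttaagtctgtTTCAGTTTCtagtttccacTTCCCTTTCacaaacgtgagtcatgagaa
B2m, chr3:129549160-129549208, plus strand: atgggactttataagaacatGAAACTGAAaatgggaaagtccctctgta
Tap1, chr20:4668635-4668683, minus strand: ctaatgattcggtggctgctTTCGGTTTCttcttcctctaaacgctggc
Ifit3 holds the core at 2 places, both within 43 bases before the start, and its capitals, like those of Irf7 and Tap1, read as the reverse complement of the core. The match lay 150 bases before the start in B2m, 120 in Tap1 and 68 in Irf7, and the Irf1 match lay 142 bases before it. A match is a description of the letters only.

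The libraries matched their labelled tissues. The summed FPKM of 9 striatal neuron markers was 2319 to 5809 in the striatum and 2.23 to 25.9 in the whisker follicle, and that of 12 follicle epithelium genes (chiefly keratins) was 79976 to 140928 in the follicle and 26.5 to 63.4 in the striatum. The FPKM of a library summed to between 348717 and 418892 in the striatum and between 774567 and 1524570 in the follicle. Low FPKM values fell on whole multiples of a step set by each library, so the fragments behind the values of 6 members could be recovered, as the smallest whole numbers to which the values came within a mean distance of 0.1. Relative to striatum SA library 0, the FPKM worth of 1 fragment was 0.835 to 1.13 in the striatum and 1.68 to 3.51 in the follicle, so low values rest on fewer fragments in the follicle.

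The order of the members by FPKM, a per-length scale, differed between the tissues. In striatum SA the mean FPKM was 162 ± 24.3 for B2m (SD, n = 6, as for the values that follow), 9.38 ± 1.88 for Mx2, 4.74 ± 1.84 for Isg15, 3.44 ± 0.427 for Irf1 and 3.01 ± 1.46 for Irf7. It was 1.67 ± 0.285 for Tap1, 1.19 ± 0.447 for Ifit3, 0.987 ± 0.358 for Ifit2 and 0.238 ± 0.104 for Mx1. B2m at the top and Mx1 at the bottom stood clear of their neighbours in this order, while every other pair of neighbours overlapped in range. In whisker follicle SA the mean FPKM was 268 ± 63.1 for B2m, 23.0 ± 4.19 for Irf7, 11.5 ± 3.08 for Isg15 and 9.02 ± 2.34 for Irf1. It was 4.20 ± 0.612 for Tap1, 1.99 ± 0.614 for Mx2, 0.622 ± 0.381 for Mx1 and 0.0289 ± 0.0336 for Ifit2, and Ifit3 was listed at 0 in all 6 libraries. In the follicle only the neighbours Isg15 and Irf1, Mx2 and Mx1, and Ifit2 and Ifit3 overlapped.

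**Figure D1:**
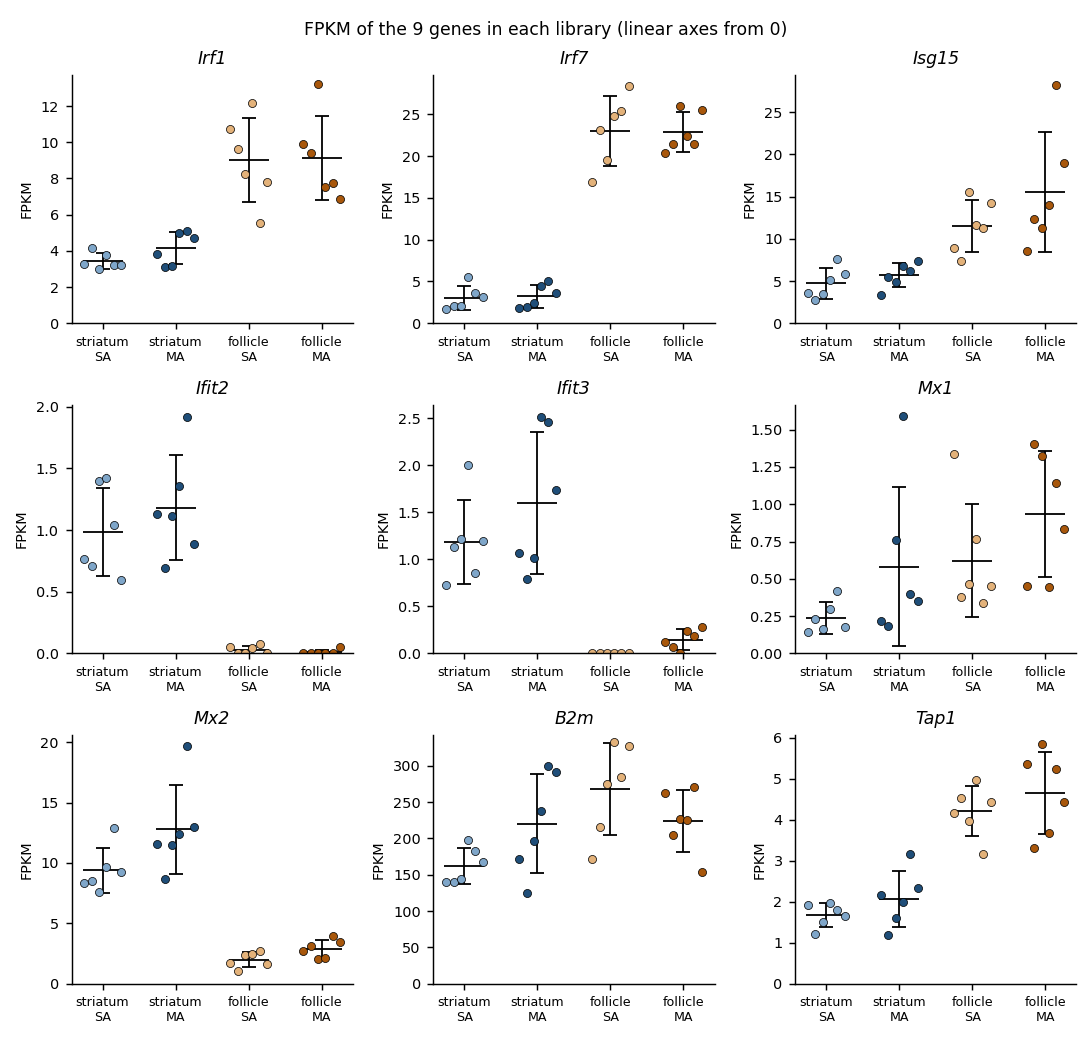
FPKM of each of the 9 genes (vertical axes, linear from 0) in the 24 libraries, as 1 point per library by tissue and treatment, with horizontal lines for the group mean and bars for its SD (n = 6). Irf1, Irf7 and Tap1 sit higher in every follicle library than in any striatum library of the same treatment, and Ifit2, Ifit3 and Mx2 sit lower.

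In SA rats the members differed between the tissues in both directions. The regulators Irf1 and Irf7, the modifier Isg15 and the antigen presentation genes B2m and Tap1 were higher in the whisker follicle, while the effectors Ifit3 and Mx2 were lower there. By limma on log2(FPKM + 1), 7 of the 7 members that passed the filter (mean FPKM of at least 1 in either tissue) were differentially expressed, 5 higher and 2 lower in the follicle. To be called, a gene needed a 1.5-fold difference or more and an adjusted p (Benjamini-Hochberg) below 0.05. Of all 11509 genes tested 75.1% met this, 31.5% higher and 43.6% lower in the follicle, so a call between these tissues is the usual outcome and reads as nothing particular to the members. Ifit3 passed the filter only through the striatum and so had to differ, which leaves 6 members whose call the filter did not fix, and Ifit2 and Mx1 did not pass. The median difference was 0.96 over the 7 members and −0.30 over all genes tested. In bulk tissue, fewer cells of a type and less RNA per cell cannot be told apart.

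Among the regulators, Irf7, a factor that drives the type I interferon genes, had the largest difference of the members on the log2(FPKM + 1) scale, although Ifit2 and Ifit3 differed by a larger ratio in their recovered fragments. Its lowest, median and highest FPKM were 1.70, 2.58 and 5.59 in striatum SA, and 16.9, 23.99 and 28.4 in follicle SA. The 2 groups did not overlap, as for 67.9% of all genes tested, and the difference was 2.63 on the log2(FPKM + 1) scale (SE 0.21, limma adjusted p = 3.15e-08). Irf1, a factor induced strongly by interferon gamma, had FPKM of 3.02, 3.25 and 4.15 in striatum SA and 5.57, 8.93 and 12.2 in follicle SA. These groups did not overlap either, and Irf1 was higher in the follicle by 1.15 (SE 0.15, limma adjusted p = 9.24e-06). Between 42 and 171 fragments stood behind each Irf1 value and between 42 and 332 behind each Irf7 value.

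The effectors split. Isg15, a ubiquitin-like protein that is joined to other proteins in infected cells, had FPKM of 2.72, 4.37 and 7.64 in striatum SA and 7.42, 11.5 and 15.6 in follicle SA. Of the 6 follicle libraries 5 were above every striatum library, and the difference was 1.15 (SE 0.22, limma adjusted p = 0.000247). Mx2 ran the other way. Mx1 and Mx2 are dynamin-like GTPases that block viruses, in rats in the nucleus and in the cytoplasm respectively. Mx2 had FPKM of 7.61, 8.88 and 12.9 in striatum SA and 1.09, 2.04 and 2.70 in follicle SA, with no overlap. It was lower in the follicle (log2 difference −1.81, SE 0.16, limma adjusted p = 1.12e-07). Mx1, by contrast, had FPKM of 0.143, 0.201 and 0.419 in striatum SA and 0.336, 0.458 and 1.34 in follicle SA, below the filter in both. Its recovered fragments, 61 over the 6 striatum libraries and 64 over the 6 follicle libraries, gave a level 2.69 times as high in the follicle (95% exact interval 1.86 to 3.88, counting error only). With no filter on low values, the Mx1 difference was 0.37 on the log2(FPKM + 1) scale (limma adjusted p = 0.0165), short of the 1.5-fold limit. Mx1 and Mx2 thus lay in opposite orders between the tissues.

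Ifit2 and Ifit3 encode related proteins that bind viral RNA or restrain its translation, and both were close to absent from the follicle values. Ifit3 had FPKM of 0.723, 1.16 and 2.00 in striatum SA, and was listed at 0 in the 6 follicle SA libraries (log2 difference −1.11, SE 0.12). Since the filter admitted it through the striatum alone, no p is given. Over the group, 190 fragments were recovered in the striatum and 0 in the follicle. A count of 0 was taken to allow up to 3 fragments over the group. With that limit, and the 190 taken as exact, Ifit3 was at least 24.7-fold lower in the follicle. Ifit2 had FPKM of 0.593, 0.903 and 1.42 in striatum SA and of 0, 0.0207 and 0.0768 in follicle SA, where 3 of 6 libraries were above 0, with no overlap. Its 276 striatum fragments against 3 in the follicle gave a ratio of 35.9 (95% exact interval 12.2 to 175, counting error only). These recovered numbers could all be too small by a common factor, which would narrow the intervals and raise the limit.

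**Figure D2:**
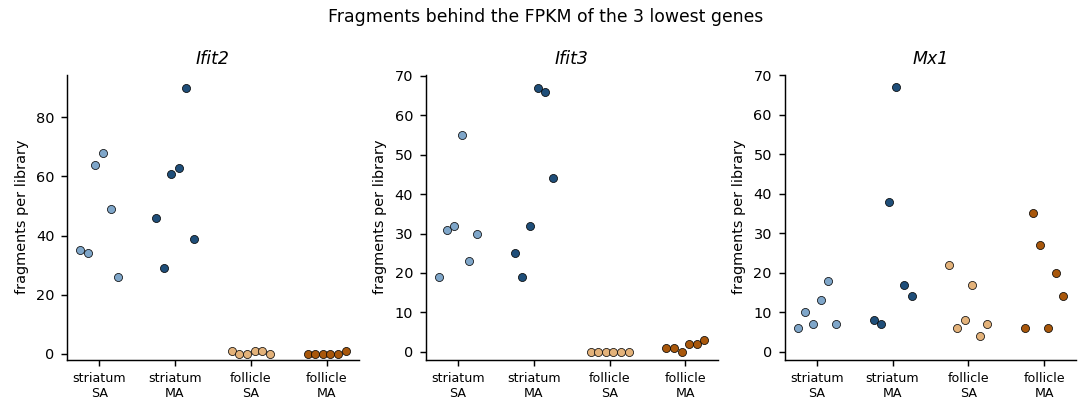
Fragments recovered per library (vertical axes) for Ifit2, Ifit3 and Mx1, as 1 point per library in the 4 groups. Ifit2 and Ifit3 lie between 19 and 90 in the striatum and between 0 and 3 in the follicle. Mx1 has 6 to 67 fragments in the striatum and 4 to 35 in the follicle.

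Of the antigen presentation genes, Tap1, a subunit of the transporter that carries peptides into the endoplasmic reticulum, had FPKM of 1.21, 1.72 and 1.97 in striatum SA and 3.17, 4.30 and 4.97 in follicle SA. The groups did not overlap and the difference was 0.96 (SE 0.12, limma adjusted p = 2.73e-06). B2m, the light chain of MHC class I molecules, had FPKM of 140, 156 and 197 in striatum SA and 172, 280 and 332 in follicle SA. Of the follicle libraries 5 of 6 exceeded every striatum library, and B2m was higher by 0.70 (SE 0.17, limma adjusted p = 0.00183). This direction depends on the scaling. With quantile normalization across both tissues the B2m difference was −0.29 (limma adjusted p = 0.0864), whereas with each library scaled to a common median it was 1.23. Under these scalings the other 6 tested members kept their direction, with Ifit3 at −0.51 under quantile normalization, short of the 1.5-fold limit.

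The same comparison within the MA libraries, added after seeing the data, gave 73.3% of 11521 genes as called. Irf1 (0.96), Irf7 (2.55), Isg15 (1.24) and Tap1 (0.89) were again higher in the follicle, and Mx2 (−1.81) was lower, each with a call. Ifit2 (−1.09) and Ifit3 (−1.13) were lower too, but both passed the filter only through the striatum, so that their calls were fixed by it. Ifit2 was tested here and not in SA because its mean striatum FPKM was 1.18 in MA and 0.987 in SA. B2m was tested in the MA libraries but not called (log2 difference 0.06, SE 0.21, limma adjusted p = 0.782). Mx1 was below the filter.

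**Figure D3:**
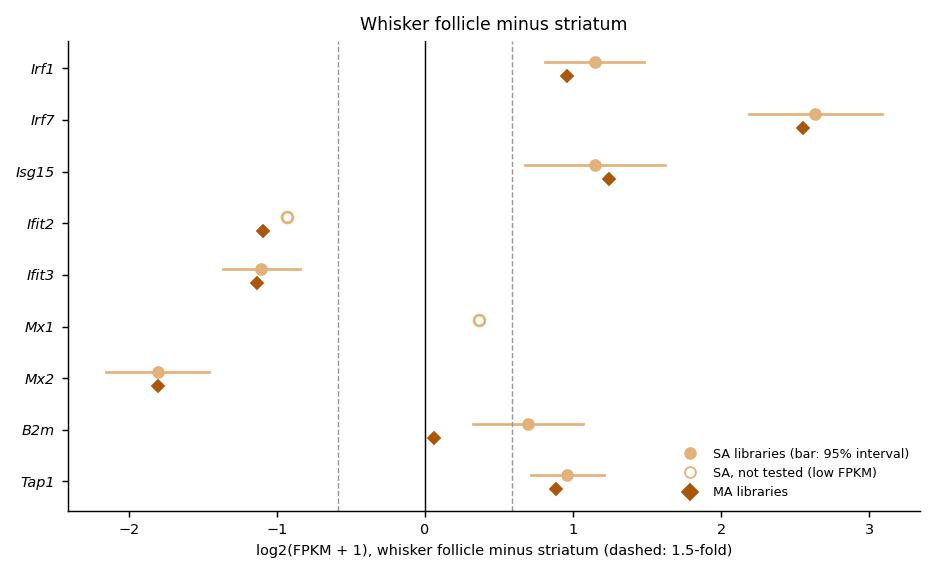
Difference in mean log2(FPKM + 1) between whisker follicle and striatum (horizontal axis) for each gene, with circles and 95% intervals for the SA libraries, open circles where the gene was below the filter, and diamonds for the MA libraries. On this scale Irf7 lies farthest to the right at 2.63 in SA and Mx2 farthest to the left at −1.81, and B2m is the gene whose MA value (0.06) lies farthest from its SA value (0.70).

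Other genes of the pathway were called in both directions between the tissues. Of 132 further interferon and antigen presentation rows, 89 were tested, 37 of them higher and 26 lower in follicle SA, beside 31.5% higher and 43.6% lower over all genes, so calls as a whole were about as common as elsewhere. Ifi27l2b (log2 difference 4.65), an interferon-induced gene, Ifitm2 (4.03), a membrane protein that hinders viral entry, and Oas1f (3.73), of the oligoadenylate synthetase family, had the largest differences upward. Those downward were Ctss (−6.69), the cathepsin that trims the class II invariant chain, Adar (−3.36), an RNA editing enzyme, and Cmpk2 (−2.90), a mitochondrial nucleotide kinase. Oas1f (mean FPKM 0.0508 in striatum SA) passed the filter only through the follicle, and Cmpk2 (0.245 in follicle SA) only through the striatum. Both calls were thus fixed by the filter. The class I antigen presentation list, to which B2m and Tap1 belong by role, had 16 genes higher and 3 lower of 26 tested. The list of other interferon-stimulated effectors had 12 higher and 11 lower of 31. All these counts, like those over all genes, include genes that passed the filter only through the tissue where they were higher. Examples are RT1-CE15 (mean FPKM 0.315 in striatum SA and 1.66 in follicle SA) and RT1-T24-3 (3.19 and 0.283). Part of the calls was thus fixed by the filter. In the follicle, the defining microglia markers Cx3cr1, Itgam and Gpr34 had a median FPKM of 0 in both groups, and the endothelial list summed to 0.482 to 1.74, against 105 to 292 in the striatum. The part of these cell types in the tissue differences was not tested.

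In the striatum, none of the 8 members tested was differentially expressed between MA and SA by limma, where 0.00943% of 10607 genes (1 gene) were called. All 8 had a mean above that of SA, with log2 differences of 0.09 to 0.39 and a median of 0.21, beside a median of 0.0022 over all genes, of which 50.5% were above 0. Only Mx2 had an unadjusted p under 0.05, as did 8.26% of all genes. No member separated the groups completely, as 0.358% of all genes did. The values below therefore describe how the 12 libraries lay.

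Mx2 and B2m had the largest differences among the members tested in the striatum. Mx2 had a lowest, median and highest FPKM of 7.61, 8.88 and 12.9 in SA and 8.65, 11.99 and 19.7 in MA. Of the MA libraries 5 of 6 were above the SA median, and MA library 4 at 19.7 was the highest. The difference was 0.39 (95% interval 0.04 to 0.74, limma adjusted p = 0.593, exact permutation p = 0.0476, two-sided and unadjusted, with 0.00216 the smallest that 924 assignments allow). B2m had FPKM of 140, 156 and 197 in SA and 125, 217 and 300 in MA. Its MA libraries spread both below and above the SA range, with 3 above every SA library and 1 below, and the difference was 0.39 (95% interval −0.03 to 0.81, limma adjusted p = 0.619).

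The other members moved less relative to their spread. Irf1 had FPKM of 3.11, 4.27 and 5.10 in striatum MA, with 3 of 6 libraries above every SA library (difference 0.20, 95% interval −0.06 to 0.46, limma adjusted p = 0.659). Irf7 had FPKM of 1.87, 3.02 and 5.10 in MA, within the SA range of 1.70 to 5.59 (difference 0.09, 95% interval −0.45 to 0.62, limma adjusted p = 0.943). Neither regulator thus differed beyond the spread between libraries. Isg15 had FPKM of 3.41, 5.84 and 7.39 in MA (difference 0.25, 95% interval −0.20 to 0.70, limma adjusted p = 0.749). Ifit2 had FPKM of 0.694, 1.12 and 1.92 in MA (difference 0.13, 95% interval −0.20 to 0.46, limma adjusted p = 0.83). Ifit3 had FPKM of 0.794, 1.41 and 2.52 in MA, where 2 libraries, MA 3 and MA 4, were above every SA library (difference 0.22, 95% interval −0.20 to 0.64, limma adjusted p = 0.758). All 3 effectors overlapped the SA libraries through most of their range. Tap1 had FPKM of 1.18, 2.08 and 3.17 in MA, with 4 libraries above and 1 below the SA range (difference 0.18, 95% interval −0.13 to 0.49, limma adjusted p = 0.743). Mx1 was below the filter at 0.183, 0.373 and 1.59 in MA against 0.143, 0.201 and 0.419 in SA (exact permutation p = 0.106). Its 67 fragments in MA library 3 and 38 in MA library 2 make up most of the 151 in the group.

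**Figure D4:**
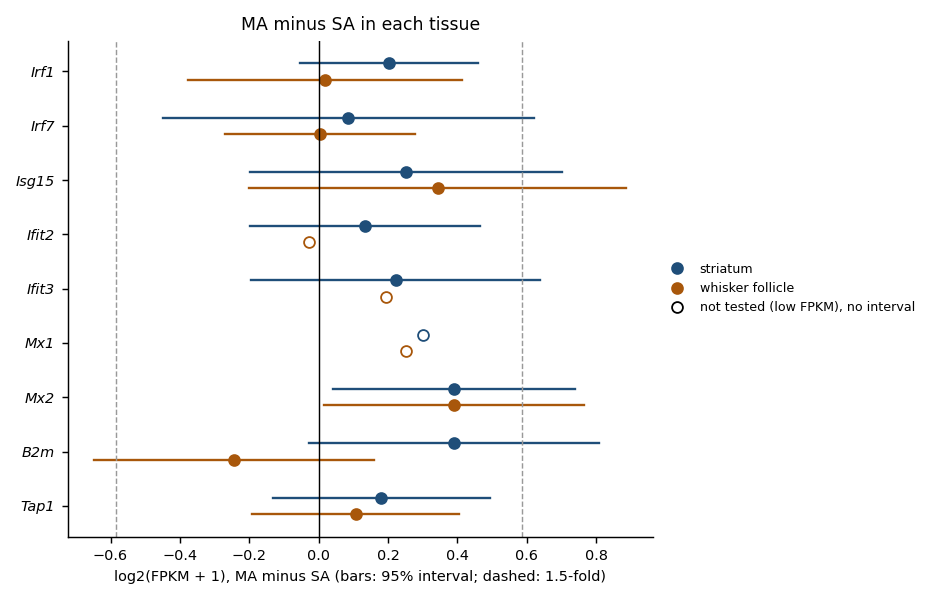
Difference in mean log2(FPKM + 1) between MA and SA libraries (horizontal axis) for each gene in both tissues, with 95% intervals as bars and open circles for genes below the filter. Of the 14 intervals drawn only those of Mx2 exclude 0, and B2m lies at 0.39 in the striatum and −0.24 in the follicle.

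The higher values in striatum MA came from the same few libraries. Each gene was scaled to mean 0 and SD 1 over the 12 striatum libraries and averaged over the 8 members. The mean was 1.67 in MA library 4, 0.96 in MA library 3, 0.79 in MA library 5 and 0.48 in SA library 3. It was lowest in MA library 1 (−0.91), SA library 0 (−0.83) and SA library 1 (−0.82). MA libraries 3 and 4 had all 8 members above their tissue mean, and MA library 5 had 7. MA library 4 was the highest of the 12 for Irf1, Ifit2, Mx2, B2m and Tap1, and MA library 3 for Ifit3 and Mx1. Marker sums were highest in some of the same MA libraries. The leukocyte and erythrocyte sums followed the order of the scores in part. The erythrocyte sums were highest in MA libraries 3, 4 and 5, which also had the highest scores. Among libraries with lower scores the order differed. SA library 3, for example, had leukocyte and erythrocyte sums of 5.22 and 460, and SA library 0 had 8.21 and 902. The microglia sums followed that order in part, with 533 in SA library 3 and 293 in MA library 1. They departed from it with 435 in SA library 0 and 349 in SA library 4. The 13 microglia markers summed to 335 to 533 FPKM in SA and 293 to 837 in MA, highest in MA libraries 4 (837) and 5 (807) and lowest in MA library 1 (293), and none of the 13 was at 0 in either group. The 15 leukocyte markers summed to 4.26 to 13.3 in SA and 3.92 to 55.9 in MA, highest in MA library 3 (55.9) and then in MA library 4 (26.0), with Cd8b and Ms4a1 at a median of 0 in both groups. Ptprc, the pan-leukocyte marker, had a median of 0.692 in SA and 0.991 in MA, Cd3e of 0.722 and 0.609, and Cd8a of 0.0836 and 0.0605. S100a8 (1.756 in SA and 3.175 in MA), S100a9 (1.391 and 4.311) and Cd52 (0.092 and 0.492) had higher medians in MA. The 5 erythrocyte rows summed to 354 to 902 in SA and 631 to 5658 in MA. They were highest in MA library 3 (5658), MA library 4 (1830) and MA library 5 (1372). The 8 antigen presenting cell markers, with Cd74 among them, summed to 5.15 to 11.8 in SA and 5.98 to 46.6 in MA. They were highest in MA library 3 (46.6), MA library 5 (15.3) and MA library 4 (13.1). The 10 endothelial markers summed to 109 to 189 in SA and 105 to 292 in MA, highest in MA library 4. The part of these cell types in the members' values was not tested.

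MA libraries 3 and 4 were left out after seeing the data, for their leukocyte and erythrocyte markers. They also had the highest mean scaled levels of the members (0.96 and 1.67). Leaving them out therefore had to make the members differ less on average, and the part of the markers was not tested. The values without them are given as a description. Of the 8, 5 then lay above 0 and the median was 0.07, with a range of −0.17 (Irf7) to 0.23 (Mx2). B2m was at 0.22, Isg15 at 0.16, Irf1 at 0.08 and Tap1 at 0.06, while Ifit2 (−0.01) and Ifit3 (−0.02) were below 0. Ifit2 fell below the filter in this fit and was not tested, and none of the other 7 was called.

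**Figure D5:**
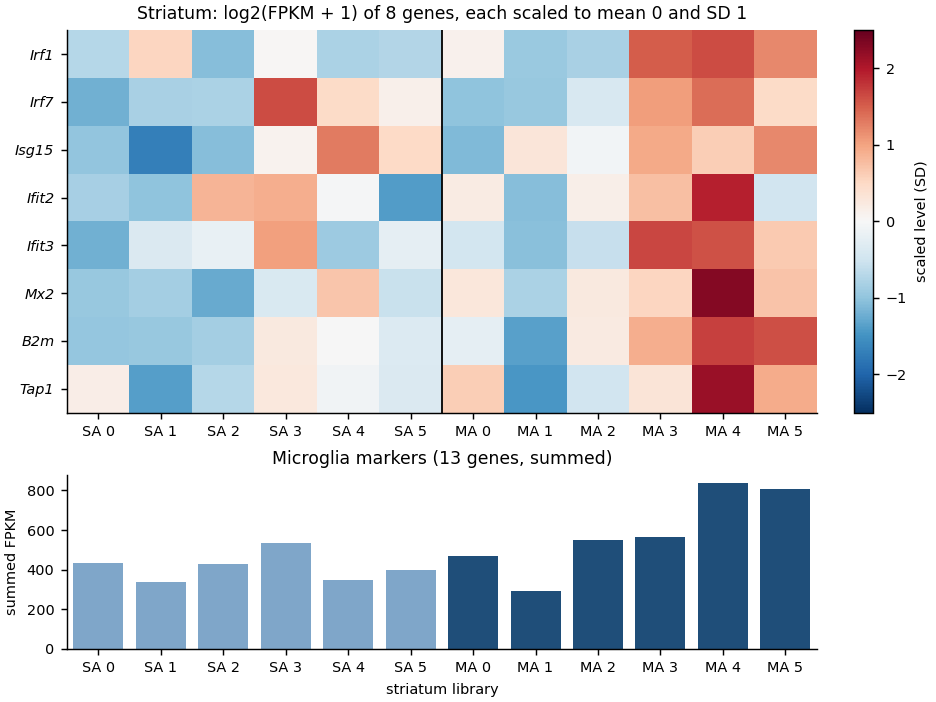
Top, log2(FPKM + 1) of 8 genes scaled to mean 0 and SD 1 (colour, in SD) in the 12 striatum libraries (columns, SA left and MA right of the line), and bottom, the summed FPKM of 13 microglia markers in the same libraries. The columns MA 3, MA 4 and MA 5 are red for nearly every gene, and the marker sums are highest in MA 4 (837) and MA 5 (807).

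In the whisker follicle, none of the 6 members tested was differentially expressed between MA and SA by limma, nor was any gene of 9138 (0%). The median difference of the members was 0.06, beside −0.0094 over all genes. Mx2 had an unadjusted p under 0.05, as did 10.4% of all genes, and no tested member separated the groups, as 0.482% of all genes did. Without follicle SA library 0, 1219 genes were called (13.5% of 9059), still with no member among them.

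Mx2 was again the tested member with the smallest p. It had FPKM of 1.09, 2.04 and 2.70 in follicle SA and 2.06, 2.92 and 3.94 in MA, so that every MA library was above the SA median and 4 of 6 were above every SA library. The difference was 0.39 (95% interval 0.01 to 0.76, limma adjusted p = 0.465, exact permutation p = 0.0476). Isg15 had FPKM of 8.51, 13.2 and 28.2 in MA against 7.42, 11.5 and 15.6 in SA (difference 0.34, 95% interval −0.20 to 0.89, limma adjusted p = 0.52). Its MA libraries 4 and 5 were above every SA library, and these were also the highest libraries for Mx2. Irf1 had FPKM of 6.89, 8.56 and 13.2 in MA (difference 0.02, 95% interval −0.38 to 0.41, limma adjusted p = 0.968). Irf7 had FPKM of 20.4, 21.9 and 26.0 in MA (difference 0.00, 95% interval −0.27 to 0.28, limma adjusted p = 0.989). For both regulators the 2 groups covered much the same range. Tap1 had FPKM of 3.31, 4.84 and 5.84 in MA (difference 0.11, 95% interval −0.19 to 0.40, limma adjusted p = 0.706). B2m had FPKM of 153, 226 and 271 in MA against 172, 280 and 332 in SA (difference −0.24, 95% interval −0.65 to 0.16, limma adjusted p = 0.531). No MA library was above the SA median of B2m. The leukocyte list summed to 42.3 to 268 in SA and 37.1 to 159 in MA, of which S100a8 and S100a9 made the most. Ptprc, the pan-leukocyte marker, had a median of 0.0448 in SA and 0.0188 in MA. Cd3e, Cd3d and Cd3g, the CD3 subunits of the T cell receptor complex, had a median of 0. The sum thus mostly reads S100a8 and S100a9, and the part of leukocytes in the B2m values was not tested.

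The members below the filter in the follicle were counted in fragments. Ifit3 was listed at 0 in all 6 SA libraries and above 0 in 5 of 6 MA libraries, with 1, 1, 0, 2, 2 and 3 fragments in MA libraries 0 to 5. The groups meet only at 0, and the exact permutation p was 0.0152, two-sided and unadjusted over the 18 tests of 9 members in each tissue. Its 9 fragments, taken as exact, make a level 2.8-fold that which 3 fragments over the SA group would give. Ifit2 had 1 fragment in the 6 MA libraries and 3 in the 6 SA libraries, too few to show a difference at this depth. Mx1 had FPKM of 0.336, 0.458 and 1.34 in SA and 0.445, 0.987 and 1.40 in MA, with 64 and 108 fragments in all (exact permutation p = 0.188).

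The MA effects of the tissues were compared by an interaction term over the 24 libraries, in which 0.0244% of 8212 genes were called. None of the 6 members tested was called. B2m was the only one with an unadjusted p under 0.05, as 12.5% of all genes had. Its MA effect was lower in the follicle than in the striatum by a log2 difference of −0.63 (95% interval −1.21 to −0.06, limma adjusted p = 0.389), and −0.36 with quantile normalization. B2m was called without follicle SA library 0 (−0.75, limma adjusted p = 0.044), where 14.7% of all genes were called, and with weighted libraries (−0.62, limma adjusted p = 0.0426), where 15.2% were. The other 5 members lay between −0.18 (Irf1) and 0.09 (Isg15), with adjusted p of 0.696 or more. For Mx2, whose MA difference was 0.39 in both tissues, the interval of the difference between tissues was −0.50 to 0.50.

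Among the other genes of the pathway none was called for MA in either tissue. In the striatum 68 of 79 tested were above 0 (86.1%), with a median of 0.20 and 11 with an unadjusted p under 0.05, beside 50.5% above 0 and 8.26% under that p over all genes. The microglia, leukocyte, erythrocyte and endothelial marker sums given above were each highest in striatum MA library 3 or 4, and their part in these values was not tested. The 4 with the smallest p were Gbp2 (0.36), an interferon-induced GTPase, Psmb10 (0.36), a subunit of the immunoproteasome, Calr (0.27), a chaperone of class I assembly, and Ptpn1 (0.43), a phosphatase acting on JAK kinases, each with a limma adjusted p of 0.577. Gbp2 had FPKM of 1.75, 1.93 and 2.16 in SA and 2.11, 2.54 and 3.79 in MA, which overlap at their edges. In the follicle 41 of 78 were above 0, with a median of 0.02. The 4 with the smallest p were the class I gene RT1-M6-2 (−0.85), Tapbpl (0.79), a peptide editor related to tapasin, Ikbke (−0.33), a kinase that activates interferon regulatory factors, and Ifi27l2b (−0.88), each with a limma adjusted p of 0.465. Tapbpl had FPKM of 2.01, 3.75 and 7.32 in follicle SA and 5.75, 6.94 and 10.6 in MA. Without follicle SA library 0, Irf2, Stat2 and Tapbpl were called as higher in MA and RT1-M6-2 and Ifi27l2b as lower, among 13.5% of all genes.

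Likeness between genes was measured as the mean absolute difference of scaled log2(FPKM + 1) over the 12 libraries of a tissue, as a description of genes that share those libraries. No member was among the 2 genes nearest to another member in either tissue. In the striatum, the nearest gene to Isg15 was Lgals3bp (0.37 SD), to Mx2 Hddc3 (0.18), to B2m Tmem176a (0.21), to Tap1 Grap (0.20), to Irf1 C1qtnf2 (0.21), to Irf7 Man2b1 (0.32), to Ifit2 Tmbim1 (0.23) and to Ifit3 Notch4 (0.23). In the follicle, it was Oas1a for Isg15 (0.43), RT1-S3 for Tap1 (0.34), Gpr180 for Mx2 (0.39), Ap3s1 for B2m (0.19), Ephb6 for Irf1 (0.27) and Apoc1 for Irf7 (0.39). Within the members, Isg15 and Mx2 were the closest pair in the follicle (0.61 SD, Mx2 being the 20th nearest of 9137 genes to Isg15), and Irf1 and Isg15 were far apart there (1.49 SD). In the striatum B2m and Mx2 were the closest pair (0.42 SD).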

How the data were processed

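Poly(A) RNA from the striatum and whisker follicles of the same rats was sequenced. The paper's methods name Cutadapt, TopHat2 with rn6 and Cufflinks, while the notes of the submitters list STAR 2.6.0c, bcl2fastq, rn6 and Cufflinks 2.2.1. The authors deposited FPKM values, with the annotation and the scaling not given in the sources used here. Columns name the group but not the rat, so libraries were treated as unnumbered replicates. Genes of mean FPKM 1 or more were tested with limma 3.58.1 (R 4.3.3, moderated with a trend) on log2(FPKM + 1), a scale that understates the change of low genes, and p-values were Benjamini-Hochberg adjusted over all genes tested. Each member was also compared by an exact permutation test over 924 assignments. All tests were two-sided. The fits were tested on simulated data. The members and lists were chosen with earlier results of these data known. The text names all members, and of other pathway genes those called or else the 4 with the smallest p for MA, and the 3 largest differences each way between tissues. Alternatives were other pseudocounts (0.1 and 0.5), filters, scalings, weighted libraries, thresholds and each library left out. Genes called without follicle SA library 0 were named after their values were seen.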

Additional observations from a re-analysis of the deposited data

Results flagged for a closer look

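In 1 of the 35 groups of 6 libraries whose values varied, a library stood far from the others. Ifit2 in follicle MA library 5 had an FPKM of 0.0546, which is 1 fragment, while the other 5 libraries were at 0. When a single library is above 0 the gap always spans the whole range, so the flag rests on that 1 fragment alone.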

How the results depend on the processing

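No paired analysis was possible because the columns carry an index without a link to rat numbers. In the striatum, the count of genes called (1) became 0 with a mean FPKM of at least 5 or without MA libraries 3 and 4, 62 with unadjusted p and the fold, and 0 to 4 with each library left out, and no member was called in any of these fits. In the follicle it became 1160 with weighted libraries, 336 with unadjusted p, and 0 to 1219 with each library left out (1219 without SA library 0). Other pathway genes called there were 5, 4, and 0 to 5 under these settings. For the interaction, 2 genes became 1 with a mean FPKM of at least 5 or without MA libraries 3 and 4, 1245 with weighted libraries, 496 with unadjusted p, and 1 to 1193 with each library left out. Members called were 1, 1, and 0 to 1 under the last 3 settings, and other pathway genes 9, 4, and 0 to 5.

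Directions turned for values near 0, and for B2m between the tissues, which was called at 0.70. In the follicle, Irf1 was −0.010 with quantile normalization and −0.10 to 0.10 with each library left out, and Irf7 was −0.0081 with a common median, −0.011 with weighted libraries and −0.078 to 0.066 with each library left out. In the striatum, Irf7 was −0.17, Ifit3 −0.016 and Ifit2 (then below the filter) −0.011 without MA libraries 3 and 4, and Irf7 was −0.032 to 0.24 with each library left out. For the interaction, Mx2 was −0.17 with quantile normalization. With weighted libraries Mx2 was −0.084, Irf1 0.045, Isg15 −0.14 and Tap1 0.11. With each library left out Mx2 was −0.098 to 0.12, Irf7 −0.24 to 0.036, Isg15 −0.092 to 0.23 and Tap1 −0.17 to 0.020. Without MA libraries 3 and 4 Irf7 was 0.18 and Tap1 0.042. Between the tissues B2m was −0.29 with quantile normalization. The causes were not tested. Ifit2 passed the tissue filter in 3 fits that left out a library, which made 8 members called there instead of 7.

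With 6 libraries a group, the intervals for MA reached past the 1.5-fold limit on the log2(FPKM + 1) scale for Irf7, Isg15, Ifit3, Mx2 and B2m in the striatum and for Isg15, Mx2 and B2m in the follicle. Low genes change less on this scale than in FPKM, so a 1.5-fold change in FPKM is not excluded for other low members either, such as Ifit2 and Tap1 in the striatum. Intervals over recovered fragments cover counting error only. Limits from counts of 0 cover only the counting error of the 0, with the other count taken as exact.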
